A study of Homo sapiens with 18 samples.

Results

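Transforming growth factor beta (TGF-beta) signalling was examined through 9 genes, which are 3 ligands (*TGFB1*, *TGFB2*, *TGFB3*), 3 receptors (*TGFBR1*, *TGFBR2*, *TGFBR3*), the latency protein gene *LTBP1* and the feedback targets *SMAD7* and *SKIL*. They were picked by gene symbol from the 21944 genes of the authors' table, and all 9 were listed at each of the 3 time points. The table came from bulk RNA sequencing of pancreatic progenitors differentiated from human embryonic stem cells, dissociated at day 19 with accutase and plated again on laminin-411 (LN411) or fibronectin (FN). Cells were harvested 3, 6 or 24 h later, which makes 6 groups of 3 samples and 18 libraries. The labels name both HUES4 and SA121-derived NGN3-GFP, a line with a reporter for *NEUROG3*, and the paper gives NGN3-GFP for this experiment. Fibronectin-plated cells were the control at each time, and both arms went through the same dissociation and plating. The reagents of the study include an inhibitor of the TGFBR1 kinase, and the stage of its use is not given in the sources used here.

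The value analysed is the mean normalized count of each gene, which is 1 mean that the authors took over all 18 samples after scaling each library. It is a level of the gene in these cultures as a whole, without a spread, an interval or a value for either matrix or any time. Levels per sample were not analysed here, and the authors' own comparison of LN411 with FN was not used. The order of the genes below is therefore a description, and no difference between genes was tested. Genes differ in length, so levels of different genes are compared mainly per kilobase of annotated exon, and a comparison by count is named as one. The depth of single libraries is unknown, and the mean normalized counts of all genes sum to 53217583.

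TGF-beta ligands are made as precursors and secreted in an inactive complex with their own propeptide, which latent TGF-beta binding proteins tether to the matrix. Once released, a ligand brings together a type II and a type I receptor kinase, and the type I receptor phosphorylates SMAD2 and SMAD3, which enter the nucleus with SMAD4. Among the genes they switch on are *SMAD7* and *SKIL*, whose products damp the pathway. In the developing pancreas, TGF-beta signalling is known to influence the choice between endocrine, ductal and acinar fates, and integrins that bind the matrix can release the ligands.

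The ligands are related in sequence, and reads from a stretch that they share could be assigned to the wrong gene. The coding stretch around the longest run of bases common to *TGFB1* and *TGFB3*, the ligands with the highest and the lowest level, is shown here, since it bears on whether their counts can be told apart. Capitals mark the 49 of 86 bases that are identical in both genes, read 5′ to 3′ on the coding strand of the canonical GENCODE transcripts.

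TGFB1: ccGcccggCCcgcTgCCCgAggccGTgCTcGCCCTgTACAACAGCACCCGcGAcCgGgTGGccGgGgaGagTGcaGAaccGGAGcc

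TGFB3: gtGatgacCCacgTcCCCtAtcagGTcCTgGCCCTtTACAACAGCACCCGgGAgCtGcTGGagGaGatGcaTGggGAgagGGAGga

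On GRCh38 these stretches lie in exon 1 of each gene, in the part that encodes the propeptide, at chr19:41352755-41352840 for *TGFB1* and chr14:75980628-75980713 for *TGFB3*, both on the minus strand. The longest exact run common to all 3 coding sequences was 13 bases. The longest between a pair was 17 bases, for *TGFB1* and *TGFB2*, against 14 for *TGFB1* with *TGFB3*. Among the receptors, whose type I and type II members carry related kinase domains, the longest shared run was 12 bases, between *TGFBR2* and *TGFBR3*. No window of 50 bases in a ligand or receptor transcript was found in that of another ligand or receptor.

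*TGFB1*, the most widely expressed ligand of the family, had the highest ligand level. Its mean normalized count was 5144 in the authors' table. Per kilobase its level was 1576, above that of 94.1% of the genes with a known exon length. The gene (ENSG00000105329) spans chr19:41301587-41353922 on the minus strand, and 215 bases of its exons (6.59%) are also annotated to *HNRNPUL1* on the opposite strand, which had a mean normalized count of 11238. Whether the counting used the strand is not given in the sources used here, and STAR's gene counting leaves out a read that overlaps more than 1 gene, so reads in that overlap may be missing from the count.

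*TGFB2*, a ligand with its own dependence on the co-receptor encoded by *TGFBR3*, followed, with 2466 as the authors' mean normalized count. Its level per kilobase was 408, which is 0.259 times that of *TGFB1* (0.479 times by count) and higher than that of 76.5% of genes. *TGFB2* (ENSG00000092969) lies at chr1:218345336-218444619. The antisense transcript *TGFB2-AS1*, which covers 701 bases of its exons, had a mean normalized count of 5.68, or 0.230% of that of *TGFB2*. On the same strand, *TGFB2-OT1* covers 1371 bases, or 22.7% of the exons. Of the 50-base windows of the *TGFB2* transcript, 33.9% also occur in these transcripts, on either strand. In this annotation a read falling in *TGFB2-OT1* has no unique gene, and a read falling in *TGFB2-AS1* has none if the strand was not used. Such reads may be missing from the count. The level of *TGFB2*, its ratio to *TGFB1* and its share of the ligands may then be too low, which was not tested.

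*TGFB3* had the lowest level of the 9 genes. Its mean normalized count was 294 in the authors' table and its level per kilobase 56.3, so that 46.1% of genes lay below it. With the longest transcript as its length the level was 85.7, more than 1.5 times as high. The gene (ENSG00000119699, chr14:75958097-75983011) shares 163 bases of exon with *TGFB3-AS1* on the opposite strand. Per kilobase, *TGFB1* was 28.0 times as high as *TGFB3*, against 17.5 times by count and 21.6 times per kilobase of the longest transcript. *TGFB2* was 7.24 times as high as *TGFB3* per kilobase, 8.38 times by count and 4.90 times with the longest transcript. Of the summed level of the 3 ligands per kilobase, *TGFB1* made up 77.3%, *TGFB2* 20.0% and *TGFB3* 2.76%.

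**Figure D1:**
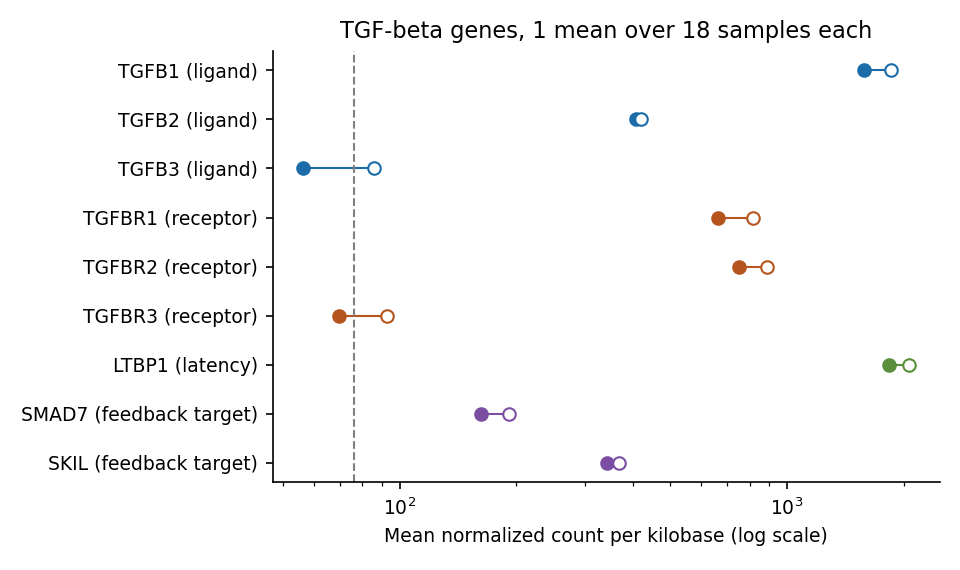
Mean normalized count per kilobase, on a log axis, of the 9 TGF-beta genes, with 1 value per gene over all 18 samples. Filled points use the length of all exons merged and open points that of the longest transcript, and the dashed line is the median of all genes with merged exons, 76.2. *LTBP1* and *TGFB1* lie farthest to the right, and the filled points of *TGFB3* and *TGFBR3* lie left of the line.

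The receptor kinases had close levels. *TGFBR1*, the type I receptor also known as ALK5, had 5295 as the authors' mean normalized count and a level of 663 per kilobase. *TGFBR2*, the type II receptor that binds the ligand first, had a mean normalized count of 5134 and a level of 750 per kilobase. *TGFBR2* was thus 1.13 times as high as *TGFBR1* per kilobase and 0.970 times by count, and the order of this pair changed with the scale. No spread is available to say whether they differ. They lie at chr9:99104038-99154192 (ENSG00000106799) and chr3:30606601-30694142 (ENSG00000163513), both on the plus strand, and no other gene is annotated over their exons.

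*TGFBR3* encodes betaglycan, a co-receptor without a kinase that presents ligands to the type II receptor and is best known for *TGFB2*. Its mean normalized count was 597 in the authors' table. Per kilobase its level was 69.6, higher than that of 48.8% of genes and 0.105 times that of *TGFBR1*. The gene (ENSG00000069702) covers chr1:91680343-91906335 and has 8.58 kb of merged exons, the longest of the 9. In the summed level of the 3 receptors per kilobase, *TGFBR2* made up 50.6%, *TGFBR1* 44.7% and *TGFBR3* 4.70%.

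*LTBP1*, which encodes a latent TGF-beta binding protein that anchors the inactive ligand in the matrix, had the highest level of the group. Its mean normalized count of 13456 in the authors' table ranked 649th of all genes. At 1831 per kilobase it exceeded 95.0% of genes. *LTBP1* (ENSG00000049323) occupies chr2:32946953-33399509 with 34 exons in its canonical transcript. A transcript on the opposite strand covers 249 bases of its exons, and 2.40% of its 50-base windows also occur there.

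Both feedback targets lay below *TGFB2* and above *TGFBR3* per kilobase. By count *SKIL* lay above *TGFB2*, which had 2466, so the order of this pair changed with the scale. *SKIL* encodes SnoN, a corepressor that binds SMAD proteins, and had 2779 as the authors' mean normalized count and a level of 342 per kilobase. *SMAD7*, the inhibitory SMAD that competes for the type I receptor and brings ubiquitin ligases to it, had a mean normalized count of 641 and a level of 163 per kilobase. *SKIL* was 2.11 times as high as *SMAD7* per kilobase and 4.33 times by count. *SMAD7* (ENSG00000101665) lies at chr18:48919853-48950965 and *SKIL* (ENSG00000136603) at chr3:170357342-170396835. Of the 50-base windows of the *SKIL* transcript, 0.746% occur in transcripts of other genes, and none of those of *SMAD7* do.

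Against all genes of the table, 8 of the 9 lay above the median mean normalized count of 297, with *TGFB3* just under it. Per kilobase, 7 of the 9 lay above the median of 76.2, and *TGFB3* and *TGFBR3* below it. The 9 genes spanned 32.5-fold per kilobase and together held 0.0673% of the summed mean normalized counts.

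**Figure D2:**
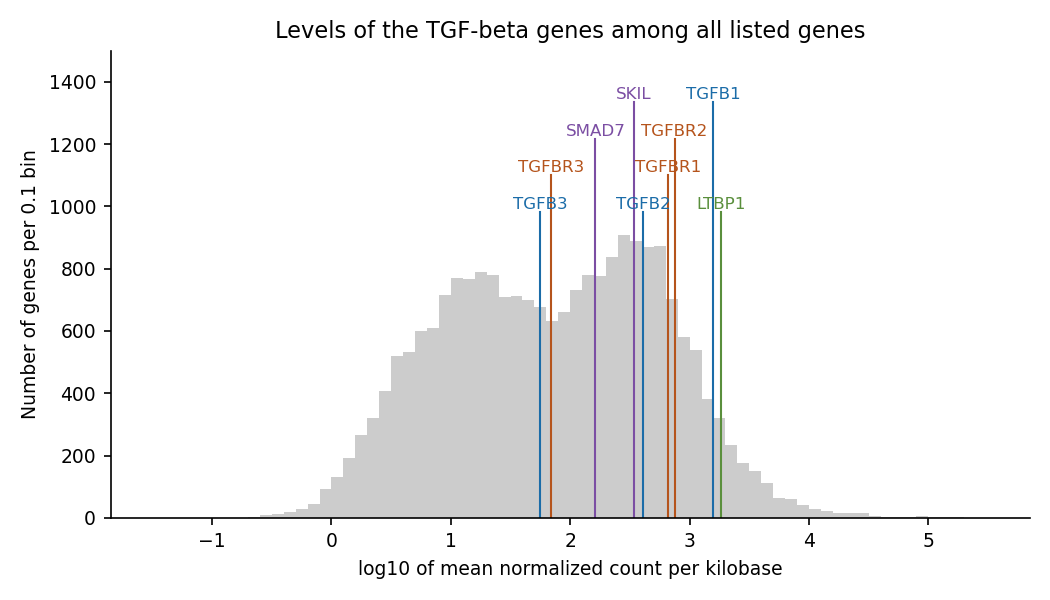
Number of genes (vertical axis) per 0.1-wide bin of the log10 mean normalized count per kilobase (horizontal axis), with a line at each of the 9 TGF-beta genes, coloured blue for ligands, orange for receptors, green for *LTBP1* and purple for feedback targets. *TGFB3* and *TGFBR3* fall near the middle of the distribution, while *TGFB1* and *LTBP1* fall in its right tail, above 94.1% and 95.0% of genes.

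The rest of the pathway was described through 5 lists with 40 genes. All 3 SMADs that transmit the signal lay above the median of all genes per kilobase, with 322 for *SMAD3*, 245 for *SMAD4* and 110 for *SMAD2*. With the longest transcript as length, *SMAD4* had 536 and *SMAD3* 499, so the order of this pair changed. By mean normalized count the order was *SMAD4* with 4793, *SMAD2* with 4015 and *SMAD3* with 3222, so *SMAD2* was not the lowest. *SMAD2* has 36.4 kb of merged exons and a longest transcript of 34.6 kb. Its place below *SMAD3* per kilobase therefore rests on this annotated length, which both choices of length share. Of 9 other inhibitors and corepressors, all 9 lay above the median, from 99.4 for *PMEPA1*, which encodes a membrane protein that sequesters the signalling SMADs, to 839 for *TGIF2*, a nuclear corepressor. The longest transcript as length was an alternative chosen here after seeing the data. With it *TGIF1* had 1366 and *NEDD4L* 1290, above the 971 of *TGIF2*.

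Among 10 genes for the storage and release of latent ligand, 7 lay above the median. The highest was *FURIN*, the protease that cleaves the ligand precursor, with 1884 per kilobase, close to the 1831 of *LTBP1*. The lowest was *NRROS*, which tethers latent ligand on myeloid cells, with 2.87. By count the highest was *ITGAV* with 13729, against 9343 for *FURIN*. With the longest transcript as length *FURIN* stayed the highest with 2150, and *ITGAV* had 1727 instead of 710. The median of these 10 genes was 196 per kilobase. Of 7 co-receptors and receptor regulators, 5 lay above the median of all genes. They ranged from 1.53 for *ACVRL1*, a type I receptor best known in endothelium, to 6587 for *STRAP*, which encodes a protein that binds the receptors and is also part of a general RNA assembly complex.

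Genes known to respond to TGF-beta in other cells were uneven. Of 11 such genes, 10 were analysed and 6 lay above the median. *FN1*, which encodes fibronectin, the protein also used as the control matrix, was the highest with 41618 per kilobase. The lowest was *SNAI2*, a transcription factor of epithelial to mesenchymal transition, with 11.9. *ZEB2* was not found by symbol among the listed genes and has no level here.

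**Figure D3:**
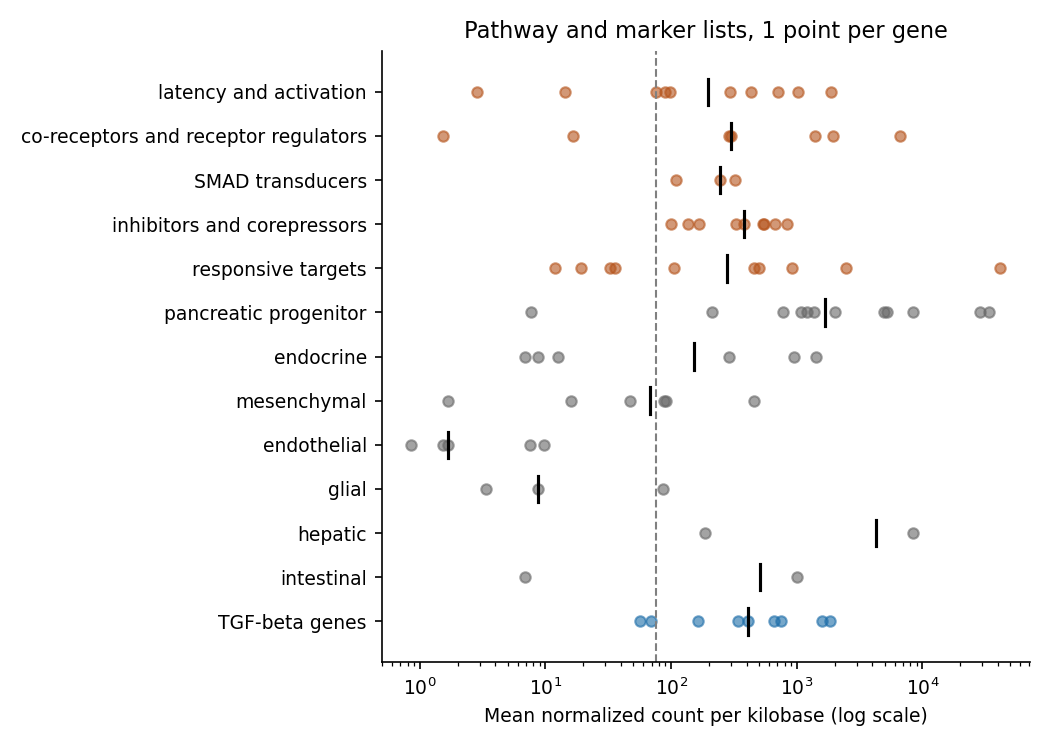
Mean normalized count per kilobase on a log axis for the genes of the 5 pathway lists (orange), 7 marker lists (grey) and the 9 TGF-beta genes (blue), with 1 point per gene, a black bar at each list's median and a dashed line at the median of all genes, 76.2. The median of the 9 TGF-beta genes is 408, and every endothelial marker lies left of the line.

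The label of the cells was checked against markers on the same scale. Of 12 pancreatic progenitor markers, 11 lay above the median of all genes, among them *PDX1* with 4969 and *NKX6-1* with 773 per kilobase. *PTF1A*, which marks multipotent and acinar progenitors, had a level of 7.64. Of 6 endocrine markers 3 lay above the median, which were *CHGA* with 1426, *SST* with 958 and *NEUROG3* with 289 per kilobase. Below it lay *INS* with 12.7, *NEUROD1* with 8.67 and *GCG* with 6.87.

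Markers of cells that are known for strong TGF-beta signalling were lower but not at 0. Of 7 mesenchymal markers, 6 were analysed, and they ranged from 1.67 for *THY1* to 454 for *COL1A1* per kilobase, with 3 above the median. *COL1A1* is also on the list of genes that respond to TGF-beta, and the next highest marker was *PDGFRA* with 90.9. The 5 endothelial markers ranged from 0.851 for *CDH5* to 9.69 for *PECAM1*. Of 3 glial markers 1 lay above the median, and *SOX10*, which defines the lineage, had a level of 3.36. The mesenchymal range ran from above 2.7% to above 78.3% of all genes, so most genes fall in it. It held 5 of the 9 TGF-beta genes, which were *TGFB2*, *SKIL*, *SMAD7*, *TGFBR3* and *TGFB3*. Of these, only *TGFBR3* and *TGFB3* lay below *PDGFRA*. A low level in many cells and a high level in few give the same mean in bulk RNA, and the part of other cell types in these levels was not tested. Both hepatic markers lay above the median, with 8334 per kilobase for *AFP* and 187 for *ALB*. Of 2 intestinal markers 1 lay above it, with 1011 per kilobase for *CDX2* and 6.88 for *LGR5*. The pluripotency genes *POU5F1* and *NANOG* were looked up by symbol and not found among the listed genes, so they have no level here.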

How the data were processed

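Poly(A) RNA libraries of 18 samples were sequenced by the authors, aligned to GRCh38 with STAR 2.7.2d, counted per gene against an older GENCODE release and normalised with DESeq2 1.34.0, per the methods and the labels. The deposited value used here, the mean normalized count, is a signal: the authors divided counts by size factors and took 1 mean per gene over the libraries. It was the same at each time, with a largest relative gap of 4.89e-07. The other 5 value columns hold the authors' own comparison of LN411 with FN (log2 fold change, standard error, test statistic, raw and adjusted p-values) and were not used. The count model designed for values per sample was therefore not run, nor was the protein alignment. No depth per sample, and hence no precision, can be given.

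Levels were divided by the merged exon length of GENCODE v44 (GRCh38), matched by Ensembl identifier for 99.6% of genes. A percentile is the share of genes with a lower level. Windows of 50 bases, on either strand, were searched in all GENCODE v44 transcripts. All 9 genes and, of each pathway list, the highest and the lowest gene are named by rule. *SMAD4*, *TGIF1*, *NEDD4L*, *ITGAV* and the marker genes were singled out after their values were seen. Some results are not reported here. The genes and lists were chosen with earlier results of these data known. The length and percentile functions were tested on simulated data. Alternatives were another length, a filter on low values, another scale and fewer ranked genes. Python 3.11.15, numpy 2.4.6, pandas 2.3.3 and matplotlib 3.10.9 were used.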

Additional observations from a re-analysis of the deposited data

How the results depend on the processing

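No paired analysis was possible because the level is 1 mean over all samples, and the planned fits of counts (other normalization, no filter, replicate block, samples left out) were not run for the same reason. With the longest transcript as length, the levels per kilobase were 1850 for *TGFB1*, 420 for *TGFB2*, 85.7 for *TGFB3*, 816 for *TGFBR1*, 886 for *TGFBR2*, 92.5 for *TGFBR3*, 2070 for *LTBP1*, 192 for *SMAD7* and 369 for *SKIL*, in the same order as with merged exons. The value of *TGFB3* moved by more than 1.5 times. The same length was applied to the signalling SMADs as an alternative chosen after seeing the data. It gave 499 for *SMAD3*, 536 for *SMAD4* and 116 for *SMAD2*, and moved *SMAD3* and *SMAD4* by more than 1.5 times. For *SMAD2* it is hardly an alternative, since the longest transcript has 34.6 kb against 36.4 kb of merged exons. The percentile of each gene by mean normalized count over all genes (89.5 for *TGFB1*, 77.8 for *TGFB2*, 49.9 for *TGFB3*, 89.9 for *TGFBR1*, 89.5 for *TGFBR2*, 56.9 for *TGFBR3*, 97.0 for *LTBP1*, 57.8 for *SMAD7*, 79.9 for *SKIL*) became, among the 19329 genes whose mean was 10 or more, 88.1 for *TGFB1*, 74.8 for *TGFB2*, 43.1 for *TGFB3*, 88.5 for *TGFBR1*, 88.0 for *TGFBR2*, 51.0 for *TGFBR3*, 96.6 for *LTBP1*, 52.1 for *SMAD7* and 77.2 for *SKIL*. Per kilobase it was 94.1 for *TGFB1*, 76.5 for *TGFB2*, 46.1 for *TGFB3*, 84.7 for *TGFBR1*, 86.3 for *TGFBR2*, 48.8 for *TGFBR3*, 95.0 for *LTBP1*, 60.8 for *SMAD7* and 73.4 for *SKIL*. Among the 18672 genes listed at all 3 times it was 87.7 for *TGFB1*, 73.9 for *TGFB2*, 41.1 for *TGFB3*, 88.1 for *TGFBR1*, 87.6 for *TGFBR2*, 49.3 for *TGFBR3*, 96.5 for *LTBP1*, 50.4 for *SMAD7* and 76.4 for *SKIL*. The lower percentiles among fewer genes follow from leaving out genes with low values.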
